A study of Mus musculus with 6 samples.

Results

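The 10 genes described here belong to the YAP pathway: the target genes Ccn1, Ccn2, Ankrd1, Amotl2, Ajuba, Lats2 and Axl, the coactivators Yap1 and Wwtr1, and the DNA-binding partner Tead1. They were chosen by name and looked up by symbol in the authors' deposited comparison table, which gives Ccn1 under its older symbol Cyr61. That table held 8 of the 10 among its 15138 genes. Ccn2 and Ankrd1 have no row there and were found by gene identifier in the count table, where all 10 were matched.

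YAP, encoded by Yap1, and TAZ, encoded by Wwtr1, are transcriptional coactivators that the Hippo kinase cascade holds in the cytoplasm. When that cascade is less active they enter the nucleus, bind TEAD transcription factors and raise a set of target genes, several of which feed back on the pathway. In the intestine they are best known for their role in epithelial regeneration after injury.

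The libraries hold RNA of epithelial cells taken off the colon of 2-month-old mice, 3 from wild type mice and 3 from Lingo3-/- mice, all kept without any treatment. Lingo3 is a membrane protein of the LINGO family, whose members carry leucine-rich repeats. The labels do not give the strain, the sex or the way the Lingo3 allele was made, and nothing in them ties each library to an animal of its own. The p-values therefore measure only the spread between these 6 samples, and part or all of it may be technical. By their own labels, the cells of wild type replicate 1 were released with 5 mM EDTA plus 2.5 mM DTT and those of the other libraries with EDTA alone, although the shared protocol names both agents.

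Counts over genes ran from 25010618 to 28029583 in wild type and from 11868000 to 17200931 in Lingo3-/- libraries. Mitochondrial transcripts took 45.3 to 48.4% of the counts in wild type and 34.7 to 36.3% in Lingo3-/-. Lingo3 itself had 0 to 3 counts per library and does not check the labels. All 8 epithelial markers looked up, the most abundant being Lgals4, Krt8 and Epcam, were expressed in every library. Of 16856 genes tested, 9.43% were higher and 5.97% lower in Lingo3-/- (either way 15.4%). A gene counts as changed where the quasi-likelihood test of edgeR, adjusted over all tested genes by the Benjamini-Hochberg method, gave an adjusted p under 0.05. Per-library values follow the order of replicates 1, 2 and 3.

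Because the members were listed as genes of TEAD and its coactivators, the TEAD motif in their promoters is shown before their levels. RefSeq promoter sequences on GRCm38.p6 were at hand for 8 of the 10 genes. The 250 bases before the start site were searched on both strands for the TEAD motif CATTCC, the AP-1 motif TGANTCA and the CArG box, the site of serum response factor. The TEAD motif lay in the windows of 7 of the 8 genes, with 2 matches each in Ajuba and Ankrd1 and none in either window of Lats2. Over all 32851 promoter windows of this length, 12.6% held it. AP-1 motifs (6.75% of all windows) and CArG boxes (1.47%) had no match in these 8 genes. A match describes the letters and is not a bound site.

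Each match is given below with 10 bases on either side, 5′ to 3′ along the strand that reads CATTCC, with the motif in capitals.
Ccn1, chr3:145650073-145650098, minus strand: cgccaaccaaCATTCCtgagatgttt
Amotl2, chr9:102717729-102717754, plus strand: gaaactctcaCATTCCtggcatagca
Axl, chr7:25788951-25788976, plus strand: gtctggtaaaCATTCCtgtagaattt
Ajuba, chr14:54577832-54577857, minus strand: ttgatggataCATTCCacagtgcccc
Ajuba, chr14:54577810-54577835, minus strand: cccctccgcgCATTCCaactgtaaac
Ankrd1, chr19:36120039-36120064, plus strand: gtgagagggtCATTCCtttggcagtg
Ankrd1, chr19:36119952-36119977, plus strand: ggtgaattttCATTCCagacttagtg
Yap1, chr9:8004722-8004747, plus strand: cgcgtcgctaCATTCCtgcagactcc
Wwtr1, chr3:57576031-57576056, plus strand: cgcctatctgCATTCCtttgagttta

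The whole upstream window is shown for Ccn1, the member with the largest fall, on the minus strand at chr3:145649986-145650235, with its TEAD motif in capitals.
Ccn1 promoter: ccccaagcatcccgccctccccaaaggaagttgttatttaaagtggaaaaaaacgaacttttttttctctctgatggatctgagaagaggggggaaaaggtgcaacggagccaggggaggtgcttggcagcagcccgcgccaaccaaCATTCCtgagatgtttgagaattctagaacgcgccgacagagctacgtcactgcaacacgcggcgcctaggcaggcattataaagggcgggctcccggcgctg

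The matches nearest to a start site were those of Amotl2, 60 to 65 bases before it, and Ccn1, 98 to 103 bases before it. The window of Ankrd1 lay wholly within exons annotated in GENCODE M21, and 136 of the 250 bases of the Amotl2 window did, so these windows also hold transcribed sequence of other annotated transcripts.

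**Figure D1:**
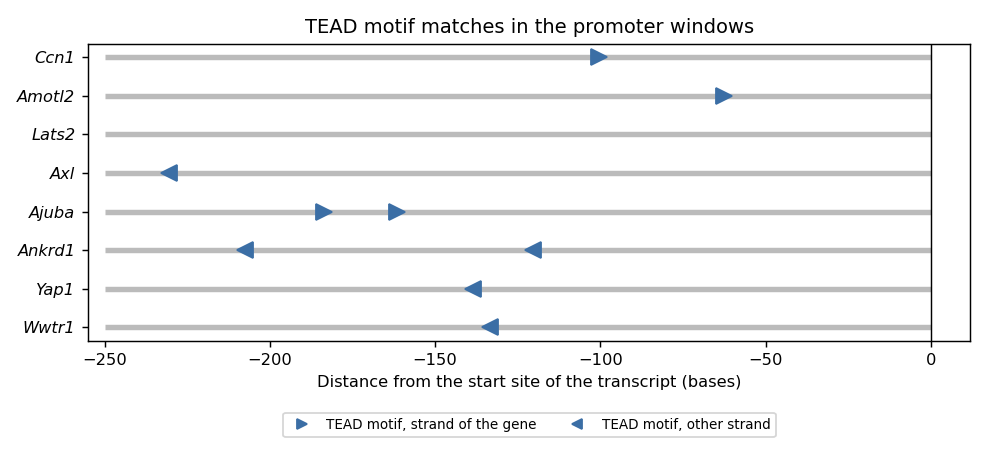
Position of TEAD motif matches in the 250 bases before the start site of 8 genes, with the distance from the start site in bases on the horizontal axis. Arrowheads point right for a motif on the strand of the gene and left for the other strand. Ajuba and Ankrd1 have 2 matches each and Lats2 has none.

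The comparison of Lingo3-/- with wild type gave lower levels of 4 target genes, Ccn1, Amotl2, Lats2 and Axl, while the transcripts of the coactivators and of Tead1 did not pass the test. Of the 8 members that could be tested, 4 fell and 0 rose, beside 5.97% of all genes lower and 9.43% higher. The ranges of the 2 groups did not overlap, with Lingo3-/- lower, for the same 4 members (16.0% of all genes, with 19.7% not overlapping and higher). The members' median log2 fold change was -0.60, and that of all genes tested was -0.03. All 8 lay at 1.60 CPM (a count relative to its library's total, with library sizes corrected by TMM factors) or more in every library, so none was tested only through the group where it was high. In the authors' deposited table, made with DESeq2 from the same libraries, the same 4 genes had an adjusted p under 0.05, where 6.72% of all genes were lower and 16.7% changed either way. The same count of 4 lower members came from DESeq2 run here (7.10% of all genes lower), from upper-quartile factors (8.10%) and from a fit on nuclear protein-coding genes only (7.77%), the last chosen after seeing the data. Fewer members were lower with no filter on low counts (3 of 10, beside 1675 of all 29129 genes in that fit). The count was 2 with the replicate number as a block (868 of 16856 genes lower) and 1 with limma-voom (910 of 16856). Leaving out a library gave 1 to 4 lower members. With library totals as the only scaling, 3 members were lower (2.49% of all genes) and 2, Yap1 and Tead1, were higher, where 32.1% of all genes were called higher; that share of members is not above the background. In bulk RNA, fewer cells of a type and less RNA per cell cannot be told apart, and this holds for every level below.

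**Figure D2:**
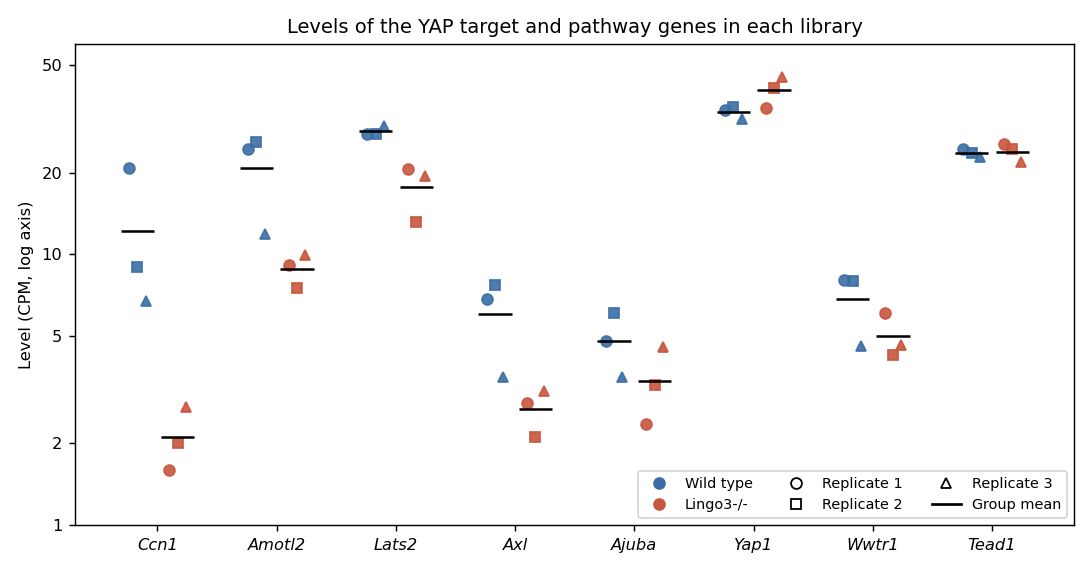
Level of the 8 tested members in each library, in CPM on a log axis, with wild type in blue, Lingo3-/- in red, a marker shape per replicate number and a black line at each group mean. The groups do not overlap for Ccn1, Amotl2, Lats2 and Axl, and wild type replicate 3 is the lowest wild type library for all members but Lats2. Tead1 and Yap1 differ little between wild type libraries, and the share of all genes lowest in that library was not computed.

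Among the secreted targets, Ccn1 (ENSMUSG00000028195, chromosome 3 from 145646976 to 145649981, minus strand of GRCm38) encodes a matricellular protein that binds integrins and is one of the most used reporters of YAP activity. It stood at 20.9, 9.01 and 6.72 CPM in wild type and at 1.60, 2.02 and 2.72 CPM in Lingo3-/-. Wild type replicate 1 was higher than any other library, and the lowest wild type library still exceeded the highest Lingo3-/- library. Wild type averaged 12.2 ± 7.64 CPM and Lingo3-/- 2.11 ± 0.567 CPM (SD, n = 3 each). The log2 fold change of Ccn1 was -2.56 ± 0.54 (SE; 95% interval -3.90 to -1.22, adjusted p = 0.0318 by edgeR), a Lingo3-/- level of 16.97% of wild type.

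This call rested on the full set of Lingo3-/- libraries. It was lost without Lingo3-/- replicate 1 (edgeR adjusted p = 0.0997), replicate 2 (0.161) or replicate 3 (0.0853). Without wild type replicate 1, the library with the highest level, the log2 fold change of Ccn1 was -1.91 and the edgeR adjusted p = 0.00169. In the authors' deposited table its log2 fold change was -2.53 ± 0.57 (SE) with an adjusted p of 0.000241.

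Ccn2 (chromosome 10 from 24595442 to 24598683, plus strand), which encodes the related matricellular protein once called connective tissue growth factor, was close to the limit of detection. Its raw counts were 10, 5 and 0 for wild type against 0, 0 and 2 for Lingo3-/-, and the groups overlapped. Over the libraries of each group this was 15 counts against 2, a Lingo3-/- level of 18.6% of wild type with an exact 95% interval of 2.07 to 80.1% that covers counting error only. With no filter on low counts the edgeR adjusted p was 0.159. An antisense gene, Gm15270, shares 23.2% of the exon bases of Ccn2 and had 0 counts in every library. The strand setting of the counting is not given, so how reads in the shared bases were counted is not known. Ankrd1 (chromosome 19 from 36111961 to 36120099, minus strand), which encodes an ankyrin-repeat protein of the nucleus and sarcomere, had 1 count in all, in Lingo3-/- replicate 2. The limit that 0 counts allow, taken as 3 counts, was worth between 0.113 and 0.240 CPM in these libraries, so no difference in Ankrd1 was detectable at this depth.

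Of the targets that also restrain the pathway, Amotl2 (ENSMUSG00000032531, chromosome 9 from 102716672 to 102733418, plus strand) encodes an angiomotin-like scaffold that binds YAP and keeps it out of the nucleus. It stood at 24.6, 25.9 and 11.9 CPM in wild type and at 9.17, 7.53 and 9.92 CPM in Lingo3-/-. Wild type replicate 3 lay nearer to the Lingo3-/- libraries than to the other wild type libraries, and the groups did not overlap. The difference for Amotl2 was -1.24 ± 0.31 on the log2 scale (SE; edgeR adjusted p = 0.0463), a Lingo3-/- level of 42.4% of wild type. It kept its call only without wild type replicate 3 among the 6 fits that leave out a library. The edgeR adjusted p was 0.0849 to 0.183 without wild type replicate 1 or 2 or any 1 of the Lingo3-/- replicates 1, 2 and 3.

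Lats2 (ENSMUSG00000021959, chromosome 14 from 57689662 to 57758388, minus strand) encodes a kinase that phosphorylates YAP and TAZ and is itself induced by them. It stood at 27.9, 27.9 and 29.8 CPM in wild type and at 20.8, 13.2 and 19.4 CPM in Lingo3-/-. The wild type libraries lay close together and all above the Lingo3-/- libraries, of which replicate 2 was the lowest. The log2 fold change was -0.68 ± 0.15 (SE; 95% interval -1.01 to -0.36, edgeR adjusted p = 0.0126), a Lingo3-/- level of 62.2% of wild type.

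Lats2 was the member whose call was kept without any single library, with an edgeR adjusted p of 0.00773 to 0.0431 over the 6 fits. It lost that call with library totals as the only scaling (edgeR adjusted p = 0.0558). In GENCODE M21, 42.4% of the exon bases of Lats2 are shared with the protein-coding gene Gm49361 on the same strand. Gm49361 has no row in the count table, so reads of the 2 genes cannot be told apart.

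Ajuba (chromosome 14 from 54567472 to 54577558, minus strand) encodes a LIM-domain protein that binds LATS kinases and limits their activity. It stood at 4.77, 6.07 and 3.51 CPM in wild type and at 2.37, 3.29 and 4.56 CPM in Lingo3-/-. The groups overlapped, since Lingo3-/- replicate 3 exceeded wild type replicate 3. The log2 fold change of -0.52 had a 95% interval of -1.11 to 0.067 and did not pass (edgeR adjusted p = 0.208).

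The receptor among the targets is Axl (ENSMUSG00000002602, chromosome 7 from 25757273 to 25788705, minus strand), a TAM-family tyrosine kinase that binds GAS6. It stood at 6.83, 7.73 and 3.51 CPM in wild type and at 2.83, 2.12 and 3.12 CPM in Lingo3-/-. As for Amotl2, wild type replicate 3 was the lowest wild type library and lay just above the highest Lingo3-/- library. For Axl, the log2 fold change was -1.18 ± 0.29 (SE; edgeR adjusted p = 0.0241), a Lingo3-/- level of 44.2% of wild type. Among the 6 fits without a library, the call was kept only without wild type replicate 3. The edgeR adjusted p of Axl was 0.0577 to 0.0940 without wild type replicate 1 or 2 or any 1 of the Lingo3-/- replicates 1, 2 and 3.

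**Figure D3:**
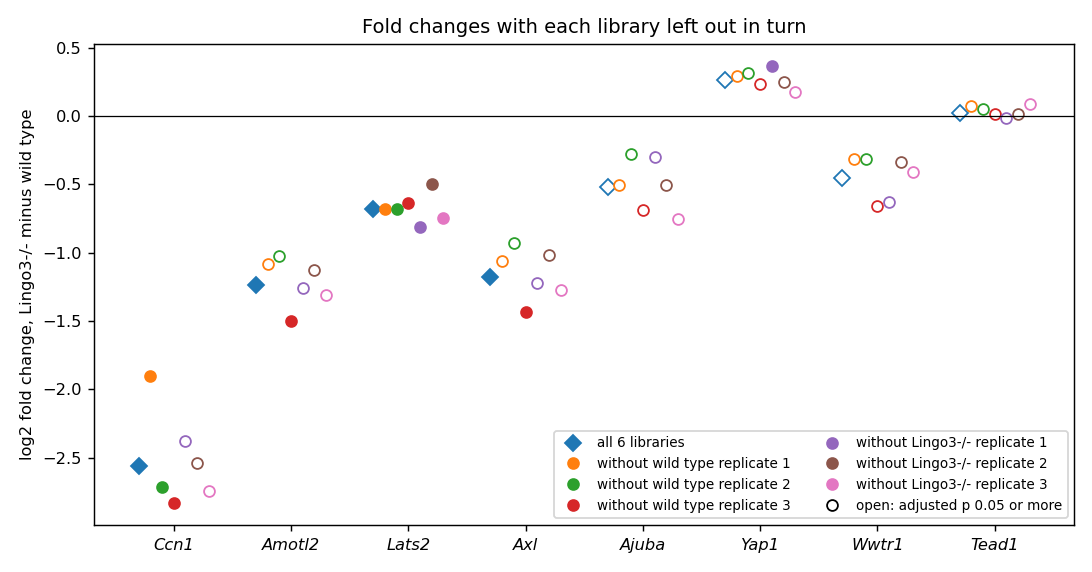
Log2 fold change (Lingo3-/- minus wild type) of each tested member with all 6 libraries (diamond) and with each library left out (circles), with open symbols where the adjusted p was 0.05 or more. Lats2 is filled throughout, while Ccn1, Amotl2 and Axl stay below 0 and open in some fits.

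The coactivator and transcription factor genes did not pass the test. Yap1 (chromosome 9 from 7931999 to 8004596, minus strand) stood at 34.2, 35.2 and 31.6 CPM in wild type and at 34.7, 41.3 and 45.3 CPM in Lingo3-/-. Lingo3-/- replicate 1 lay within the wild type range. Yap1 had a log2 fold change of 0.26 (95% interval 0.022 to 0.50), which did not pass (edgeR adjusted p = 0.129). Without Lingo3-/- replicate 1 it was 0.37 and Yap1 passed as higher (edgeR adjusted p = 0.0370). An antisense gene, Gm20416, covers 1.25% of the exon bases of Yap1 and was counted apart, at 11 to 31 counts per library. How reads in the shared bases were counted is not known, since the strand setting of the counting is not given.

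Wwtr1 stood at 8.04, 7.96 and 4.60 CPM in wild type and at 6.08, 4.24 and 4.64 CPM in Lingo3-/-. The groups overlapped at the low level of wild type replicate 3. Its log2 fold change was -0.46 (95% interval -0.97 to 0.056, edgeR adjusted p = 0.206). Tead1, whose protein brings YAP and TAZ to DNA, stood at 24.5, 23.7 and 22.9 CPM in wild type and at 25.6, 24.5 and 21.99 CPM in Lingo3-/-. Its log2 fold change was 0.02 (95% interval -0.19 to 0.24, edgeR adjusted p = 0.888), an interval that does not reach the log2 fold change of Lats2. Wwtr1 lies on chromosome 3 from 57455649 to 57575910 (minus strand) and Tead1 on chromosome 7 from 112679318 to 112906807 (plus strand). The sign of the Tead1 value turned with upper-quartile scaling (-0.04), on nuclear protein-coding genes only and without Lingo3-/- replicate 1.

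Levels of different members were compared per exon length. In wild type the highest CPM per kilobase was that of Ccn1, at 6.06 ± 3.78 (SD, n = 3), followed by Lats2 at 4.09 ± 0.161, Yap1 at 3.64 ± 0.199 and Amotl2 at 3.31 ± 1.23 (SD, n = 3). The SDs of Ccn1 and of Amotl2 each reached across the means of Lats2 and Yap1. Tead1 (1.74 ± 0.059), Wwtr1 (1.44 ± 0.411), Ajuba (1.31 ± 0.351) and Axl (1.20 ± 0.441; SD, n = 3) followed, the last 3 within each other's spread. In Lingo3-/- Yap1 was first in CPM per kilobase, at 4.37 ± 0.576 (SD, n = 3), and Ccn1, at 1.05 ± 0.281 (SD, n = 3), stood beside Wwtr1 (1.04 ± 0.202) and Ajuba (0.934 ± 0.302; SD, n = 3).

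Beyond the members, 2 further YAP and TAZ target genes fell by edgeR, and 1 of them kept its call without any single library. Of 16 genes of a published target signature that are not members, 14 could be tested, and these 2, Nuak2 and Gadd45a, fell while 0 rose, beside 5.97% of all genes lower (median log2 fold change -0.41). Nuak2, which encodes an AMPK-related kinase that acts back on the Hippo cascade, fell from 79.7 ± 7.08 to 50.3 ± 3.95 CPM (SD, n = 3) with a log2 difference of -0.66 and an edgeR adjusted p of 0.00256, and kept its call without any single library. Gadd45a, a stress-inducible growth arrest gene, fell from 20.5 ± 2.95 to 15.3 ± 1.22 CPM (SD, n = 3; log2 fold change -0.42, edgeR adjusted p = 0.0427). The call of Gadd45a was lost with DESeq2 (adjusted p = 0.0684), in the authors' deposited table (0.0740), with limma-voom (0.0563) and with library totals only (log2 fold change -0.13, edgeR adjusted p = 0.437). It was also lost without wild type replicate 1 or 3 or any 1 of the Lingo3-/- replicates 1, 2 and 3. The most abundant of the others, Dock5 (-0.17), Nt5e (-0.02), Asap1 (-0.45) and Crim1 (-0.23, log2 fold changes), did not pass by edgeR. Asap1 was lower with DESeq2 (adjusted p = 0.0448) and in the authors' deposited table (0.0484). With no filter on low counts 5 of the 16 signature genes were lower, beside 1675 of all 29129 genes in that fit. With library totals only, 1 of the 14 was lower and 1 higher, beside 2.49% and 32.1% of all genes.

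Of 28 genes of the kinase cascade, its regulators and the nuclear partners, 27 were tested, 5 rose and 1 fell, beside 9.43% of all genes higher and 5.97% lower (median log2 fold change 0.10); with upper-quartile factors the split was 2 higher and 4 lower (6.75% and 8.10% of all genes), and with library totals only 16 higher and 0 lower (32.1% and 2.49% of all genes). In the kinase cassette, Mob1a, an adaptor that activates LATS kinases, rose from 80.4 ± 7.67 to 101.7 ± 5.93 CPM (SD, n = 3; log2 fold change 0.34, edgeR adjusted p = 0.0424), while Mob1b (0.10), Lats1 (0.26), Stk4 (-0.25) and Sav1 (0.32) did not pass. Of the upstream regulators, Taok3, a kinase that can activate the cascade, fell from 108.1 ± 8.25 to 76.5 ± 2.16 CPM (SD, n = 3); its log2 fold change was -0.50, with an edgeR adjusted p of 0.00631. Rassf6, a scaffold that binds the MST kinases, rose by 0.31 on the log2 scale (edgeR adjusted p = 0.0401). The abundant Fat1 (0.10), Taok1 (-0.04), Scrib (0.03) and Nf2 (0.17) did not pass.

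Among the scaffolds related to Amotl2 and Ajuba, the LIM protein gene Limd1 rose by 0.34 (edgeR adjusted p = 0.0383), whereas Amot (0.30), Wtip (0.59) and Amotl1 (-0.64, log2 fold changes) did not pass. Amotl1 was lower with DESeq2 (adjusted p = 0.0243), and Wtip was higher in the authors' deposited table (0.0498). Of the nuclear partners, Tead2 rose from 1.81 ± 0.407 to 3.55 ± 0.141 CPM (SD, n = 3); its log2 fold change was 0.97, with an edgeR adjusted p of 0.0172. Vgll4, whose protein competes with YAP for TEAD factors, rose from 22.5 ± 2.05 to 31.9 ± 3.97 CPM (SD, n = 3; log2 fold change 0.50, edgeR adjusted p = 0.0144). Tead3 (-0.28) and Tead4 (-0.30) did not pass.

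Single libraries decided several of these calls. Taok3 kept its call in each of the 6 fits that leave out a library. Vgll4 lost it without Lingo3-/- replicate 3, Tead2 without wild type replicate 3 or Lingo3-/- replicate 3, Mob1a without wild type replicate 2 or 3 or Lingo3-/- replicate 2 or 3, Rassf6 without wild type replicate 1 or 2 or Lingo3-/- replicate 2 or 3, and Limd1 without any library but wild type replicate 2. Without Lingo3-/- replicate 3, 0 of the Hippo genes were higher and 1 was lower. Scaling by library totals only shifted the all-gene median upward by 0.28 on the log2 scale.

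**Figure D4:**
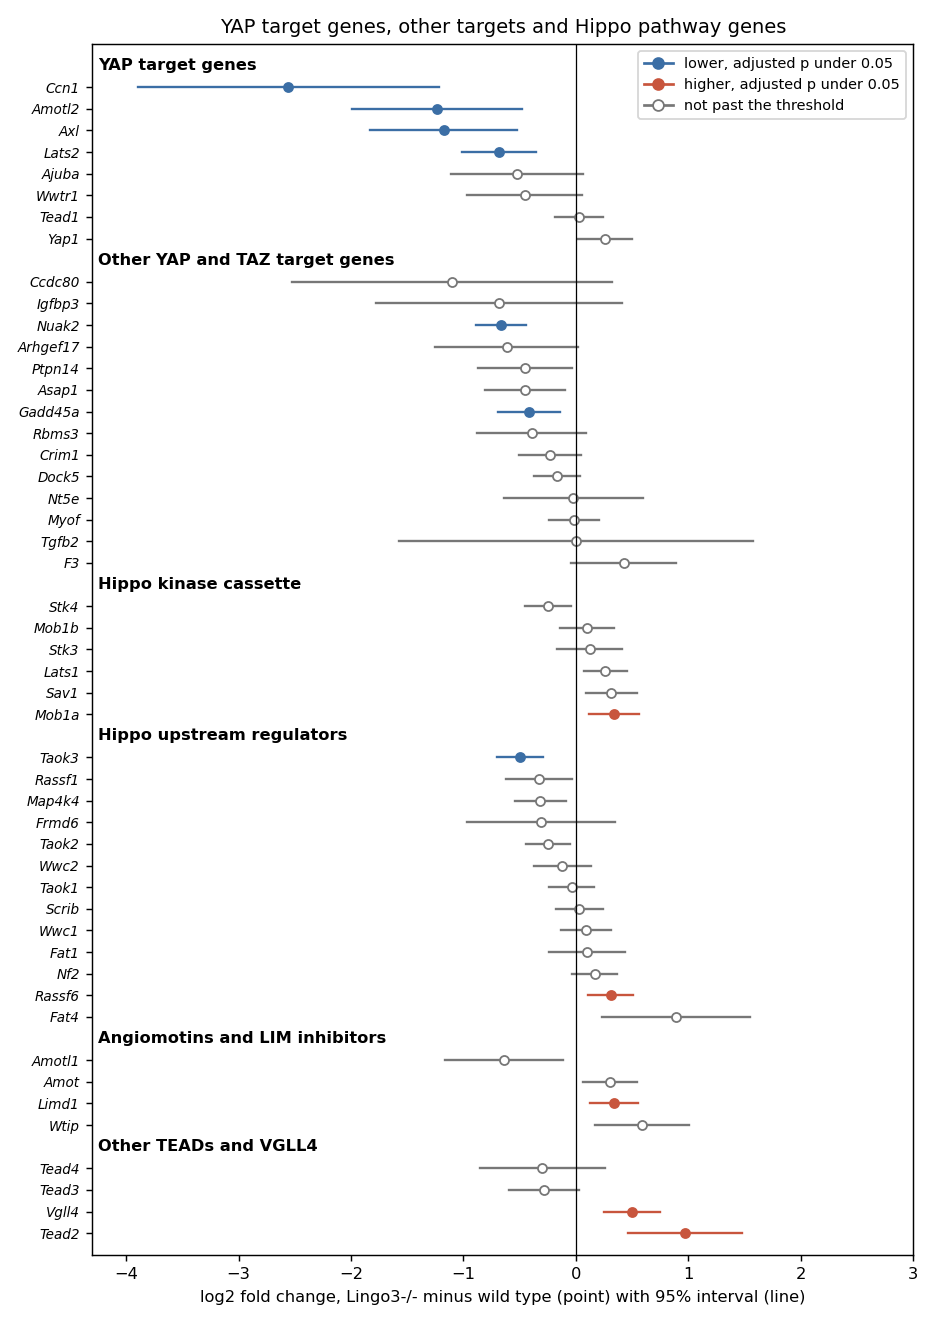
Log2 fold change (Lingo3-/- minus wild type, points) with its 95% interval (lines) for the tested members, the other target genes and the Hippo pathway genes, coloured where the adjusted p was under 0.05. Ccn1, at -2.56, is the point farthest from 0.

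Markers of other cells that such a wash can hold were read beside the members. The summed level of 8 fibroblast markers was 1017.1, 916.5 and 349.3 CPM in wild type and 483.6, 237.6 and 408.1 CPM in Lingo3-/-. Wild type replicate 3 was the wild type library with the lowest fibroblast sum, and it lay within the Lingo3-/- range. In the same library 7 of the 8 tested members had their lowest wild type level, a count whose share over all genes was not computed. Among these 7, Tead1 (24.5, 23.7 and 22.9 CPM) and Yap1 (34.2, 35.2 and 31.6 CPM) differed little between wild type libraries. None of the 8 fibroblast markers passed the edgeR test (3 were lower without wild type replicate 3). Of the 7 with an adjusted p in DESeq2 run here, 2 were lower (7.10% of all genes), Col3a1 (adjusted p = 0.0238) and Col1a1 (0.0433), as they were in the authors' deposited table (0.0254 and 0.0463). The most abundant, Col3a1 (-1.61), Dcn (-0.45) and Col1a2 (-1.15), had negative log2 fold changes by edgeR, and no marker was at 0. Of the 8 markers, 7 had negative values, among them Lum (-0.28), and Pdgfrb had a positive one (0.17, edgeR adjusted p = 0.599). The part of the fibroblast signal in the falls of the members was not tested.

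By edgeR 5.97% of all genes were lower and 9.43% higher, and the counts of the lists below stand beside these shares. Of single genes, 16.0% did not overlap with Lingo3-/- lower and 19.7% did not overlap with Lingo3-/- higher. Endothelial markers summed to 13.7 to 16.6 CPM in wild type and 8.08 to 10.7 CPM in Lingo3-/-, with Pecam1 and Kdr lower among 4 tested of 7. Tek (log2 fold change -0.42) and Vwf (0.40) did not pass. Vwf lay higher in Lingo3-/- without overlap, at 3.04 to 4.14 CPM against 2.65 to 2.85 CPM in wild type. Macrophage markers (15.7 to 23.4 and 12.99 to 46.0 CPM) overlapped between the genotypes, with 0 of 7 past the edgeR threshold (3 higher without Lingo3-/- replicate 2). Of these 7, C1qa was higher with DESeq2 (log2 fold change 1.26, adjusted p = 0.0066) and in the authors' deposited table (adjusted p = 0.0054). It stood at 8.65, 2.49 and 4.16 CPM in Lingo3-/- and at 1.87 to 2.60 CPM in wild type. By edgeR 3 of the 7 had negative log2 fold changes, Csf1r (-0.31), Cd68 (-0.14) and Mrc1 (-0.38), and the others positive ones. Smooth muscle markers (11.1 to 14.2 and 9.99 to 11.3 CPM) also overlapped, Lmod1 was at 0 in all libraries, and Des was the 1 of 5 tested that fell (0 without wild type replicate 1 or 2 or Lingo3-/- replicate 2 or 3). Of the 5 tested smooth muscle markers, 4 had negative log2 fold changes, and Myh11 had a positive one that did not pass (0.49). T cell markers did not overlap, at 116.1 to 129.2 CPM in wild type and 40.8 to 74.0 CPM in Lingo3-/-. By edgeR 4 of 6 were lower, beside 5.97% of all genes: Cd3d (-1.14), Cd3e (-1.001), Cd2 (-1.13) and Lck (-0.96, log2 fold changes). B cell markers did not overlap either, at 14.5 to 40.2 and 6.00 to 10.5 CPM, with Cd79b the 1 of 4 that fell (0 without Lingo3-/- replicate 2 or 3, 3 without wild type replicate 1). With DESeq2, 6 of 6 T cell markers and 3 of 4 B cell markers were lower, beside 7.10% of all genes. The authors' deposited table gave the same counts, where 6.72% of all genes were lower. Epithelial markers summed to 4897 to 5866 CPM in wild type and 5816 to 7146 CPM in Lingo3-/-, ranges that overlap. By edgeR 1 of 8 rose, the keratin gene Krt18, from 173.8 ± 13.2 to 243.8 ± 19.0 CPM (SD, n = 3; log2 fold change 0.49, edgeR adjusted p = 0.0131; 0.0589 without Lingo3-/- replicate 3), and Krt19 had groups that did not overlap and did not pass (0.45, edgeR adjusted p = 0.0689; 0.0143 with DESeq2). The part of these cells in the levels of the members was not tested.

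**Figure D5:**
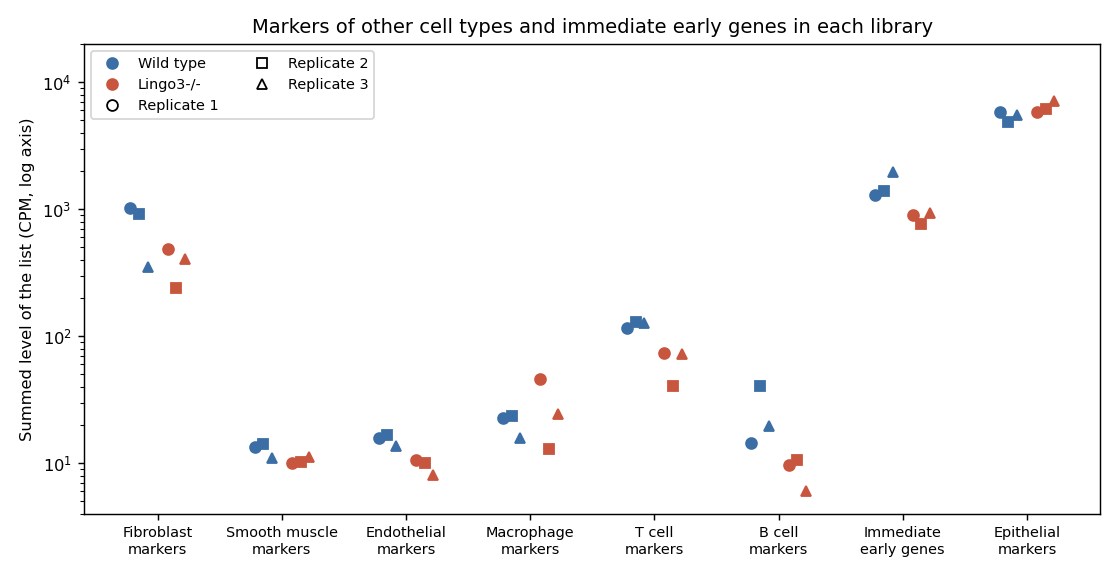
Summed level of marker lists for other cell types, of immediate early genes and of epithelial markers in each library, in CPM on a log axis, with wild type in blue, Lingo3-/- in red and a marker shape per replicate number. Fibroblast markers are low in wild type replicate 3, whereas immediate early genes are highest there.

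Ccn1 is also known as an immediate early gene that growth factors induce rapidly, so the immediate early list was read beside it. Its 15 genes summed to 1302.5, 1394.5 and 1960.3 CPM in wild type and to 896.2, 763.5 and 941.0 CPM in Lingo3-/-. The groups did not overlap, and wild type replicate 3, the lowest wild type library for Ccn1, was the highest for this list. Of 14 tested, 7 fell and 0 rose, beside 5.97% of all genes lower and 9.43% higher. Those that fell were Fos (log2 fold change -1.26, edgeR adjusted p = 0.0168), Jun (-1.05, edgeR adjusted p = 0.0124), Fosb (-2.05), Junb (-1.02), Zfp36 (-0.88), Nr4a1 (-1.56) and Btg2 (-0.65), while the abundant Klf4 did not pass (-0.21). With DESeq2, 11 of the 13 immediate early genes with an adjusted p were lower, beside 7.10% of all genes. By edgeR the count of lower genes was 2 without Lingo3-/- replicate 2, 4 without wild type replicate 2 or Lingo3-/- replicate 3, and 6 or 7 in the other fits without a library. The part of the immediate early response in the fall of Ccn1 was not tested.

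The genes whose pattern over the 6 libraries was most like that of Ccn1 were sought among 12690 tested protein-coding genes with a mean of at least 1 CPM. Likeness was the root mean square difference of log2 CPM after centring each gene on its mean. The 5 nearest were Fmod, a collagen-binding proteoglycan (0.46), the CD8 beta chain gene Cd8b1 (0.47), the elastin gene Eln (0.51), the adaptor gene Efs (0.52) and Chrdl1, a BMP antagonist (0.53). The nearest members were Amotl2, at rank 61 (0.73), and Axl, at rank 101 (0.78). Lats2 stood at rank 789, and Yap1 was the farthest member, at rank 9058. Fmod, the nearest, had 6.69, 5.01 and 2.52 CPM in wild type and 1.29, 1.22 and 1.04 CPM in Lingo3-/-. As for Ccn1, wild type replicate 1 was the highest and the groups did not overlap, a likeness by which Fmod was chosen.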

How the data were processed

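RNA of the epithelial fraction of mouse colon was sequenced in 3 wild type and 3 Lingo3-/- libraries. The authors deposited raw read counts per Ensembl gene, and Trimmomatic 0.39, STAR, HTSeq, DESeq2 and the build GRCm38 stand in the submitters' processing notes. For the strand setting and the annotation release, the value is not given in the sources used. Summary lines that name no gene, at 53.6 to 60.1% of a library's counted reads, were left out. The authors' deposited comparison table holds, per the file headers, DESeq2-normalized signal (counts divided by 1 size factor per library), log2 fold changes with standard errors, a test score that was not used, and p-values.

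Counts were tested here with the robust quasi-likelihood test of edgeR 4.0.16 in R 4.3.3, with TMM factors, filterByExpr (minimum count 10, minimum total 15), genotype as the only term, all 6 libraries and Benjamini-Hochberg adjustment over 16856 genes. The test is two-sided. Standard errors of fold changes were taken from the log2 fold change and its F statistic. The fit was tested on simulated data. limma 3.58.1, DESeq2 1.42.0, other factors, filters, a replicate block and leaving out each library were alternatives. Log2 CPM used a prior count of 2. Positions came from GENCODE M21 and promoters from RefSeq, both on GRCm38.

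The members, lists and naming rule were chosen with earlier results of these data known. Named were all 10 members, listed pathway genes and targets that passed plus up to 4 abundant others per list, markers and immediate early genes that passed, the 3 most abundant epithelial, fibroblast and immediate early genes, and the 5 genes most like Ccn1. Col1a1, Lum, Pdgfrb, Krt19, Lmod1, Myh11, Vwf, Tek, C1qa, Csf1r, Cd68 and Mrc1 were named after their values were seen. Ccn2 could not be used for likeness, since it was not tested.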

Additional observations from a re-analysis of the deposited data

How the results depend on the processing

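By edgeR, 2596 genes changed in all, 5835 with library totals only, 3942 at an adjusted p under 0.1 and 1124 to 2686 with a library left out. Of these, 61.2% were higher, against 45.4% with upper-quartile factors and 92.8% with library totals only. Of the members, 4 changed, against 1 with limma-voom (Lats2) and 1 to 4 with a library left out. The Hippo pathway genes gave 6, against 16 with library totals only, 15 at an adjusted p under 0.1 and 1 to 6 with a library left out. The other targets gave 2, against 1 with limma-voom, 5 with no filter and 1 to 3 with a library left out. The log2 fold change of Ccn1 was -2.39 with limma-voom (adjusted p = 0.0850), -2.55 with no filter (edgeR adjusted p = 0.0800) and -2.83 to -1.91 with a library left out. That of Tead1 turned to -0.043 with upper-quartile factors, -0.0078 on nuclear protein-coding genes only and -0.018 to 0.085 with a library left out. Scrib turned with upper-quartile factors (-0.043), on nuclear protein-coding genes only (-0.0072) and over -0.015 to 0.11 with a library left out. With library totals only, the values of Stk4 (0.037), Taok1 (0.25), Crim1 (0.058), Nt5e (0.27), Dock5 (0.12) and Klf4 (0.078) turned. With a library left out, Mob1b (-0.0056 to 0.18), Taok1 (-0.064 to 0.013), Fat1 (-0.019 to 0.22) and Nt5e (-0.18 to 0.25) crossed 0. None of these turned genes had passed the test. Over the fold changes of 55 genes other than Ccn1 (the members, the listed genes that passed and the most abundant others named), 703 of 823 values under an alternative kept direction and call, 75 lost the call, 27 gained one and 18 turned.

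Replicate numbers are shared between the genotypes, but same-numbered libraries did not deviate together (r = -0.010, -0.12 and -0.10). With 3 libraries per group such values cannot exclude a pairing. With the replicate number as a block (replicate block), 2061 genes changed in all, 2 members (Lats2 and Axl), 3 Hippo pathway genes and 1 other target. The log2 fold change of Ccn1 was then -2.43 (edgeR adjusted p = 0.0589). Depth limits Ccn2 and Ankrd1, at 10 counts or fewer in each library.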
